A study of Arabidopsis thaliana with 8 samples.

Results

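AT5G33370, AT5G45670 and AT1G06360 are 3 Arabidopsis genes for lipid enzymes. AT5G33370 and AT5G45670 encode esterases/lipases of the GDSL family, AT5G33370 of its cutin synthase type, and AT1G06360 encodes a fatty acid desaturase. They were taken by locus name, 3 of 16418 genes that have a probe set naming 1 gene, each with 1 probe set, and they were chosen by their log2 signals on these same arrays, which were among those with the largest fbn5-1 minus WT differences. Their differences between the genotypes are therefore a description, and no test of them is given.

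Leaf RNA was measured on 8 one-colour Affymetrix arrays, 4 labelled fbn5-1, plants with a T-DNA inserted in FBN5, and 4 labelled WT, the control plants. All plants were of the col-0 ecotype, 3 weeks old and untreated. Both genotypes grew on 0.5x MS medium with 1% sucrose in days of 16 h light and 8 h dark, at 60% humidity and 25 °C. The labels give 1 insertion line and do not say whether the replicates of a genotype came from separate plants, so p-values here measure only how far these samples spread, and that spread may be technical.

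GDSL esterases/lipases are hydrolases named after a Gly-Asp-Ser-Leu motif around their active serine, and many are secreted. Cutin synthases, known best from tomato fruit, are members that link hydroxy fatty acid monomers outside epidermal cells into cutin, the polyester of the plant cuticle. Fatty acid desaturases place double bonds in acyl chains, and AT1G06360 belongs to the membrane-bound ADS type. FBN5 is a plastid fibrillin linked to plastoquinone synthesis.

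FBN5 itself (AT5G09820) did not have less signal under the fbn5-1 label, at a log2 signal of 4.71, 4.52, 4.76 and 4.58, against 3.54, 3.35, 3.43 and 5.15 on WT arrays 1 to 4. The difference of 0.78 (SE 0.36) did not pass limma's test (adjusted p = 0.173). Without WT array 4, which held the outlying value, it was 1.20 (SE 0.11, limma adjusted p = 0.000534). FBN5 did not pass with any other array left out in turn (limma adjusted p = 0.237 to 0.338). The position of its probe set and that of the insertion are not given, so it may check nothing, and every direction below rests on the labels. WT array 4 stood apart, with a mean correlation of 0.931 with the other WT arrays over 17147 tested probe sets, against 0.968 to 0.969 for WT arrays 1 to 3 and 0.976 to 0.982 within the fbn5-1 arrays. Of the leaf mesophyll markers, RCA (Rubisco activase) was at 10.97 ± 0.09 in fbn5-1 and 11.00 ± 0.02 in WT, and PRK (phosphoribulokinase) at 7.99 ± 0.08 in fbn5-1 and 8.06 ± 0.25 in WT (log2 signal, SD, n = 4).

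AT5G33370, the cutin synthase type gene, had a log2 signal of 6.27, 5.66, 5.91 and 6.79 on fbn5-1 arrays 1 to 4, against 1.72, 1.60, 2.60 and 1.91 on WT arrays 1 to 4. All 4 fbn5-1 values lay above all 4 WT values, which held for 11.7% of the 17147 tested probe sets, while 11.9% had all fbn5-1 values below all WT values. The lowest fbn5-1 value exceeded the highest WT value by 3.06. The means were 6.16 ± 0.49 in fbn5-1 and 1.96 ± 0.45 in WT (SD, n = 4), a difference of 4.20 (SE 0.28) on the deposited log2 scale. All 4 WT values lay below 2.79, the value that a probe set's mean over the 8 arrays had to exceed to be tested. AT5G33370 thus passed that filter only through the fbn5-1 arrays, and its size of change depends on how dim signal is treated. With 16 added to the linear signal before the logarithm, which damps dim values, the arrays read 6.54, 6.06, 6.25 and 6.98 in fbn5-1 and 4.27, 4.25, 4.46 and 4.30 in WT. The difference was then 2.14 (SE 0.18), or 4.40-fold on signal plus 16.

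AT5G45670, the other GDSL esterase/lipase, had a log2 signal of 6.62, 5.92, 5.88 and 6.63 on fbn5-1 arrays 1 to 4. On WT arrays 1 to 4 it was at 3.55, 3.72, 3.63 and 3.43. The groups did not overlap, and 2.16 separated the lowest fbn5-1 array from the highest WT array. It was the one of the 3 genes whose WT values all lay above 2.79, so its difference did not start from signal under the filter value. The means were 6.26 ± 0.42 in fbn5-1 and 3.58 ± 0.12 in WT (SD, n = 4), a difference of 2.68 (SE 0.19) as deposited. With 16 added the values were 6.84, 6.26, 6.23 and 6.85 in fbn5-1 and 4.79, 4.87, 4.83 and 4.74 in WT, a difference of 1.73 (SE 0.15) or 3.33-fold.

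AT1G06360, the desaturase, had a log2 signal of 5.13, 4.13, 3.75 and 5.23 on fbn5-1 arrays 1 to 4, against 1.53, 1.42, 1.72 and 1.46 on WT arrays 1 to 4. Again no WT value reached the lowest fbn5-1 value, with 2.03 between the groups. The means were 4.56 ± 0.73 in fbn5-1 and 1.53 ± 0.13 in WT (SD, n = 4), a difference of 3.03 (SE 0.31) as deposited. Its 4 WT values also lay below 2.79, so it too was tested only because of the fbn5-1 arrays. With 16 added the values were 5.67, 5.07, 4.88 and 5.74 in fbn5-1 and 4.24, 4.22, 4.27 and 4.23 in WT, a difference of 1.10 (SE 0.18) or 2.14-fold.

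**Figure D1:**
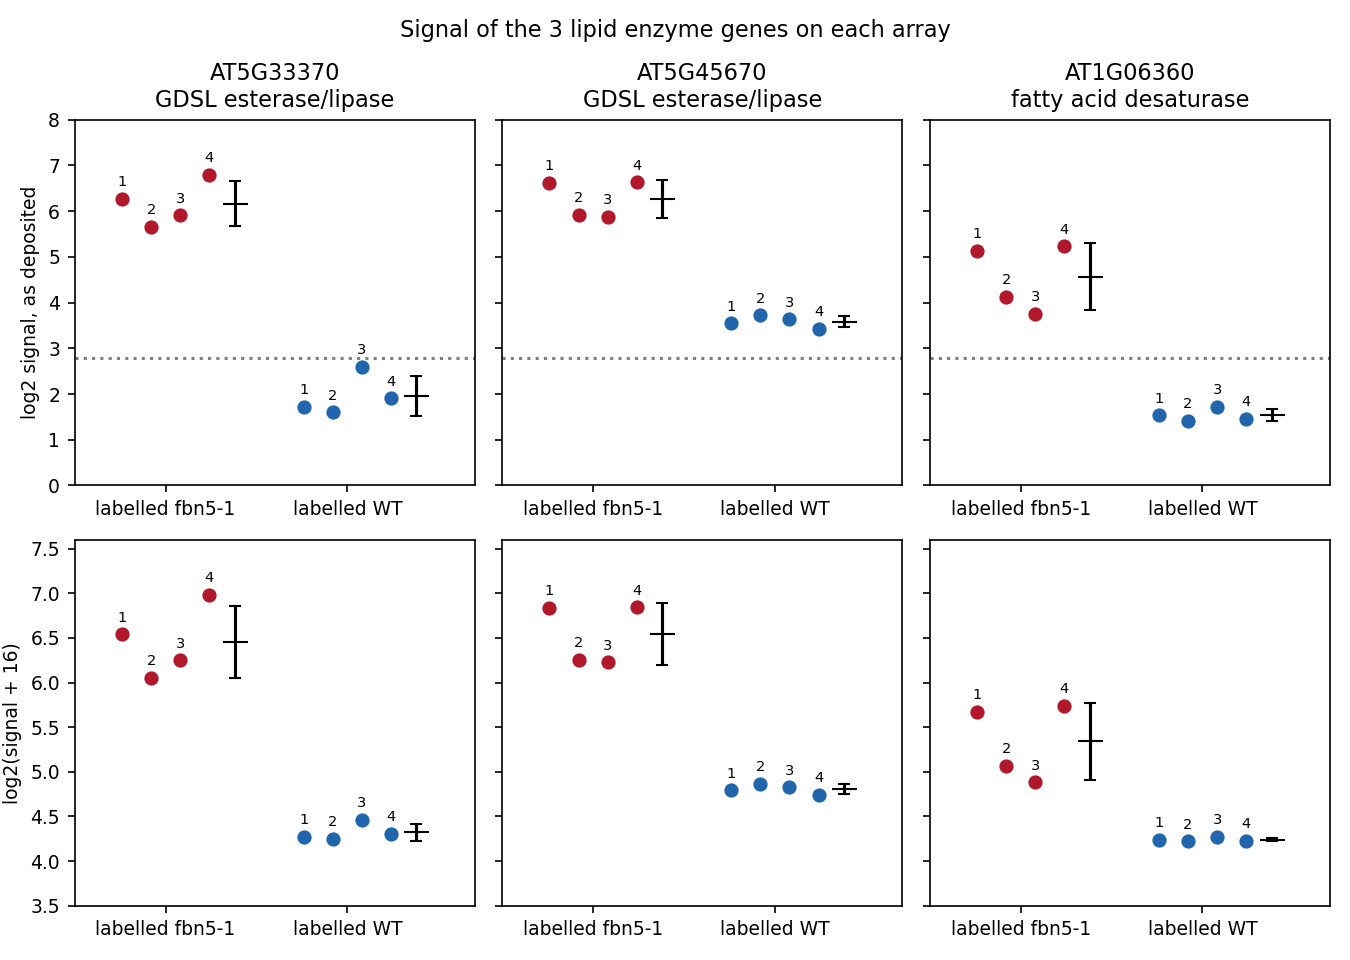
Log2 signal as deposited (top) and log2(signal + 16) (bottom) of AT5G33370, AT5G45670 and AT1G06360 on each array, numbered by replicate, with the 4 arrays labelled fbn5-1 left of the 4 labelled WT. Bars give mean ± SD (n = 4) and the dotted line the filter value of 2.79; in every panel the fbn5-1 arrays lie above the WT arrays, and the WT arrays of AT5G33370 and AT1G06360 lie below the dotted line.

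The scale moved the size of these differences but not their direction. As deposited, AT5G33370 had the highest difference of the 8889 tested genes, AT1G06360 was number 4 and AT5G45670 number 8. With 16 added they stood at numbers 2, 24 and 7. AT1G06360 thus moved furthest down in this order. In log2 units AT5G33370 lost the most and AT5G45670 the least. WT array 4 had little part in any of the 3: without it the differences were 4.18 for AT5G33370, 2.63 for AT5G45670 and 3.00 for AT1G06360. Leaving out each of the 8 arrays in turn gave 3.99 to 4.41 for AT5G33370, 2.56 to 2.81 for AT5G45670 and 2.80 to 3.30 for AT1G06360.

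The 3 genes also varied alike within the mutant label. For each of them, fbn5-1 arrays 1 and 4 lay above fbn5-1 arrays 2 and 3. The gap was widest for AT1G06360, with 5.13 and 5.23 on arrays 1 and 4 against 4.13 and 3.75 on arrays 2 and 3. That order was common on these arrays: 26.2% of the 17147 tested probe sets had it, and 32.2% of the 1410 called higher. Among the WT arrays, array 3 gave the highest value of AT5G33370 (2.60) and of AT1G06360 (1.72), while AT5G45670 was highest on WT array 2 (3.72). The spread between fbn5-1 arrays exceeded that between WT arrays for AT1G06360 (range 1.48 against 0.30) and for AT5G45670 (0.75 against 0.29). For AT5G33370 the ranges were 1.13 in fbn5-1 and 1.00 in WT, where the WT values were dim. The WT values of AT1G06360 were dim as well, at 1.42 to 1.72, so its ranges are not on equal terms.

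The genes whose values over the 8 arrays were most like each of the 3 were sought among 8888 other tested genes. Likeness was the mean absolute difference of log2(signal + 16), each gene centred on its own mean, so a smaller value is closer. The closest to AT5G33370 was AT1G10640 at 0.19, a polygalacturonase-like pectin enzyme, with 6.41, 5.32, 6.30 and 6.74 in fbn5-1 and 3.00, 3.09, 3.77 and 2.27 in WT (log2 signal as deposited). AT5G45670 followed at 0.20. AT3G28220 at 0.27, AT4G29030 at 0.31 and AT1G60590, another polygalacturonase-like gene, at 0.35 completed the 5 closest. Their differences of 1.54 to 1.88 on the log2(signal + 16) scale follow from the choice by likeness and are given as a description.

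For AT5G45670 the closest gene was AT3G28220 at 0.15, with 8.24, 7.78, 7.63 and 7.76 in fbn5-1 and 5.90, 5.78, 6.14 and 6.02 in WT. AT5G62210 at 0.20, AT5G33370 at 0.20, AT1G10640 at 0.21 and AT1G05835 at 0.22 came next. On this scale the 2 GDSL genes were each in the list of 5 of the other, while on the deposited scale AT5G33370 was not among the 5 closest to AT5G45670. On the deposited scale AT5G45670 and AT1G06360 were each the closest gene to the other, at 0.24. There AT1G06360 (0.59) was also closer to AT5G33370 than AT5G45670 (0.76) was. With 16 added, the closest to AT1G06360 were AT5G62210 at 0.15, AT4G28780, a further GDSL gene, at 0.16, and AT3G22142 at 0.16. SPCH (AT5G53210), the transcription factor that starts the stomatal lineage, and EXPB1 (AT2G20750), a beta-expansin that loosens cell walls, followed at 0.17 each. SPCH had 5.08, 2.86, 3.70 and 5.32 in fbn5-1 and 2.21, 2.63, 2.79 and 2.48 in WT, with arrays 1 and 4 high as in AT1G06360. Its WT mean of 2.53 lay below the filter value. As deposited the difference of SPCH was 1.71 (SE 0.49), and with 16 added it was 0.76 (SE 0.25). By limma it was called higher only as deposited. SPCH was chosen by its likeness to AT1G06360, so its difference is a description. On the deposited scale, 4 of the 5 genes closest to AT5G33370 stayed, 2 of the 5 for AT5G45670 and 1 of the 5 for AT1G06360, so all 3 lists depend on the scale.

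**Figure D2:**
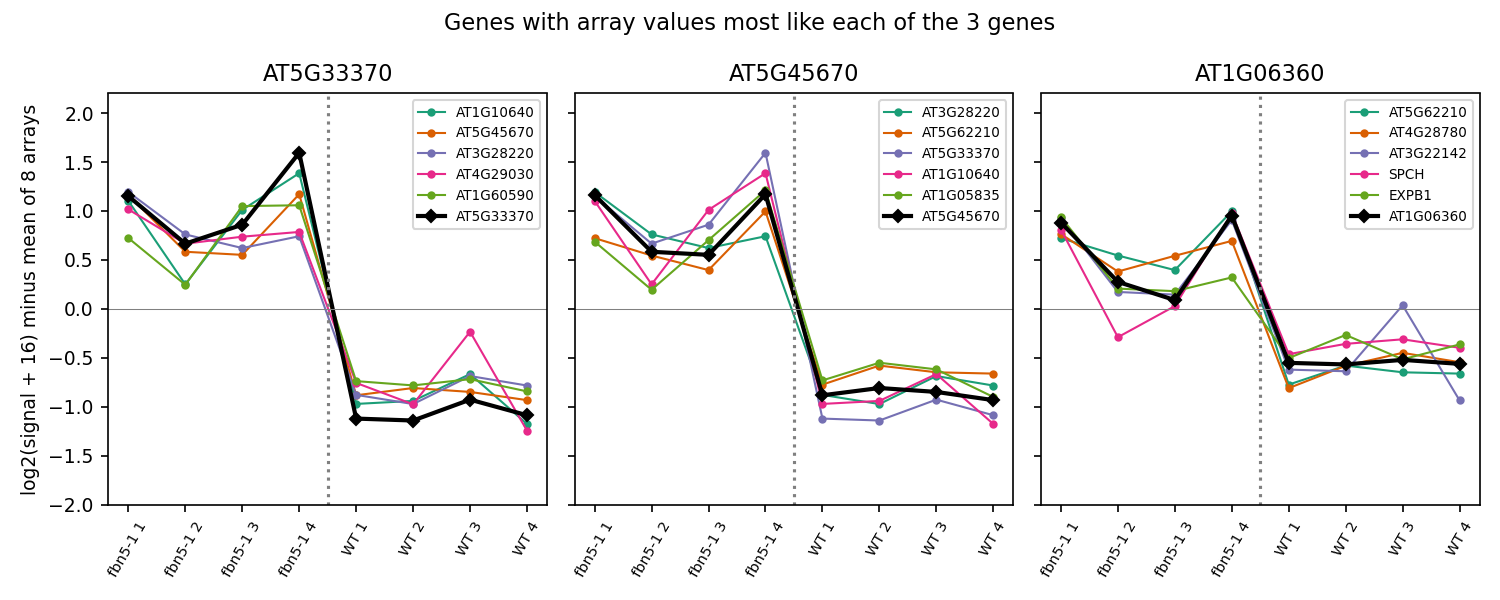
Log2(signal + 16) minus each gene's mean over the 8 arrays, for the 4 arrays labelled fbn5-1 and then the 4 labelled WT, with each of the 3 genes in black and its 5 closest genes in colour. Lines only join the points of a gene; AT1G06360 and SPCH are high on fbn5-1 arrays 1 and 4 and lower on arrays 2 and 3.

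The genes beside the 3 on the chromosome gave 1 comparison. AT5G45660, the annotated gene next to AT5G45670, was at 3.81, 3.57, 3.82 and 4.46 in fbn5-1 and 3.98, 4.23, 4.22 and 3.80 in WT, and was not called (difference -0.14, SE 0.19, limma adjusted p = 0.658). The groups of AT5G45660 overlapped, unlike those of AT5G45670. The gene on the other side of AT5G45670 and those on both sides of AT5G33370 and AT1G06360 were not analysed here, since no probe set names them alone.

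In the wider GDSL family more genes rose than fell in fbn5-1. The family list held 111 loci, 87 with a probe set that names them alone and 40 tested, among them AT5G33370 and AT5G45670. Of the other 38, limma called 8 higher, 1 lower and 29 not at all (adjusted p under 0.05). Over all 17147 tested probe sets 16.8% were called, 8.22% higher and 8.55% lower, against 21.1% higher and 2.63% lower of these 38. The units differ: each of the 38 is a gene named by its probe set, while the 17147 include probe sets that name several genes or none. A share over the 8889 tested genes is not given here. The median difference of the 38 was 0.14 as deposited and 0.07 with 16 added, beside medians of -0.02 and -0.01 over all tested probe sets. Of the 38, 4 had a WT mean below 2.79 and passed the filter only through fbn5-1, and 3 of these were called higher. Among the 33 with both group means above 2.79, 5 were higher and 1 lower, or 15.2% and 3.03%, against 7.96% and 8.66% of the probe sets with both means above 2.79. Without WT array 2 the 8 higher genes were 5, with 1 lower, while 1736 of the 17147 probe sets were called, against 2876 with all 8 arrays. Without WT array 4 they were 7 with 3 lower, while 3854 of the 17147 were called.

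AT4G28780 had the largest of these increases and, after AT5G33370 and AT5G45670, which were chosen for their large differences, the largest of the family. Its log2 signal was 5.85, 5.34, 5.56 and 5.76 in fbn5-1, against 3.13, 3.70, 3.98 and 3.78 in WT, with no overlap. It rose by 1.98 (SE 0.19, adjusted p = 0.00101 by limma). AT4G18970 was at 4.03, 3.91, 3.62 and 4.18 in fbn5-1 and 2.48, 2.99, 2.53 and 1.74 in WT, and rose by 1.50 (SE 0.25, limma adjusted p = 0.00571). Its WT mean of 2.44 lay below the filter value, and with 16 added its difference was 0.54. AT1G54010, also named GLL23 and known from protein complexes around the beta-glucosidase PYK10, was at 6.34, 5.88, 6.45 and 6.03 in fbn5-1 and 4.74, 5.27, 4.88 and 3.92 in WT. It rose by 1.47 (SE 0.27, limma adjusted p = 0.00798), and by 1.21 without WT array 4. PYK10 was also lowest on WT array 4, at 6.84, with 9.72, 9.26, 9.59 and 9.36 in fbn5-1 and 9.23, 9.70 and 9.34 on WT arrays 1 to 3.

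AT5G45960 was at 3.61, 3.14, 3.21 and 3.95 in fbn5-1 and 2.36, 2.50, 2.42 and 2.52 in WT, and rose by 1.03 (SE 0.18, limma adjusted p = 0.00703). Its WT mean of 2.45 lay below the filter value, so it was tested only through the fbn5-1 arrays. With 16 added its difference was 0.35. AT5G45960 lies beside AT5G45950, which rose by 0.72 (SE 0.16, adjusted p = 0.0171) and lost its call without WT array 2 (limma adjusted p = 0.0502). The other 4 called genes were, like AT5G45950, singled out after their values were seen. AT5G18430 and AT2G04570 were higher by 0.84 and 0.82 (limma adjusted p = 0.0025 and 0.0301). AT5G18430, with a WT mean of 2.64, was also tested only through the fbn5-1 arrays, and with 16 added its difference was 0.29. AT2G04570 lost its call in 4 of the 8 fits that leave out an array, those without WT array 1, WT array 2, fbn5-1 array 1 or fbn5-1 array 4. AT3G48460 was higher by 0.39 (adjusted p = 0.0491) and lost its call without each of the 8 arrays. AT2G38180, the 1 lower gene, differed by -0.46 (limma adjusted p = 0.0433) and kept its call only without WT array 2 or WT array 4 among those fits. None of these differences reached that of AT5G45670, which was chosen for its large difference.

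**Figure D3:**
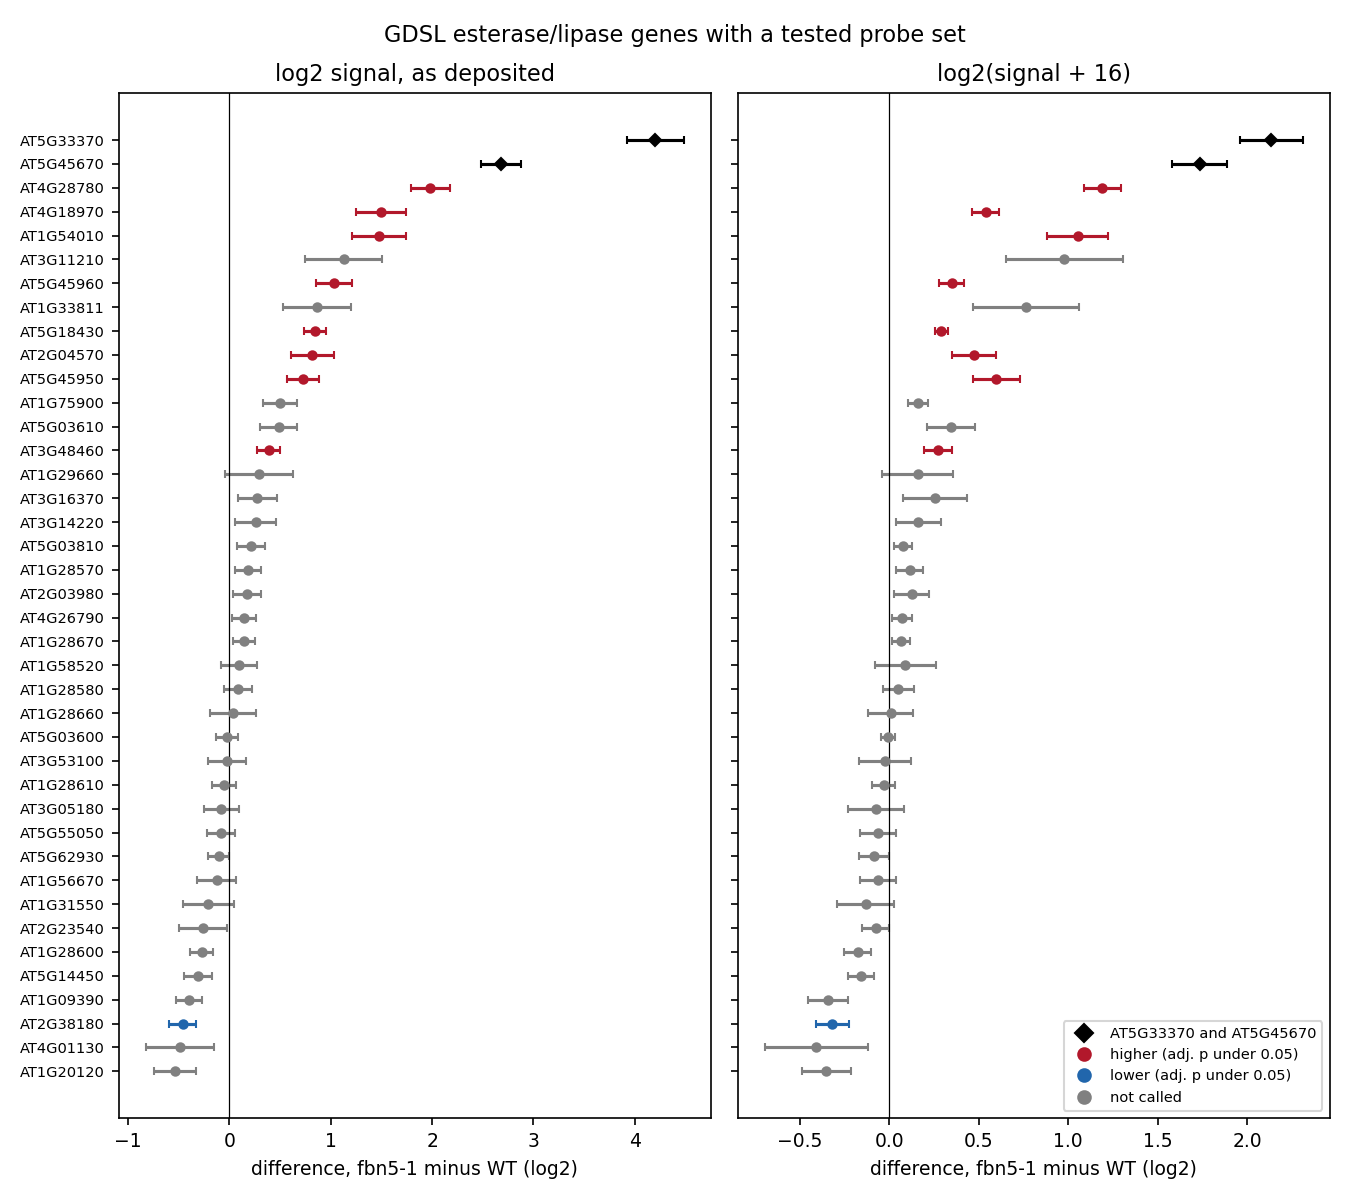
Difference of fbn5-1 minus WT (log2, points, with the SE of the limma fit as bars) for the 40 tested GDSL genes, on the deposited scale (left) and with 16 added to the linear signal (right). Black diamonds mark AT5G33370 and AT5G45670, red 8 higher and blue 1 lower genes called on the deposited scale. The diamonds, chosen for their large differences, lie right of all other genes on both scales.

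The remaining 47 GDSL genes with a probe set did not pass the filter. Each had both group means below 2.79, the highest mean over the 8 arrays being 2.59. A dim gene with as large a difference as AT5G33370 would have passed. The filter held down only the mean over the 8 arrays, so it favoured but did not force low means in both genotypes. The plot of group means for all 87 measured genes shows where they lie.

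**Figure D4:**
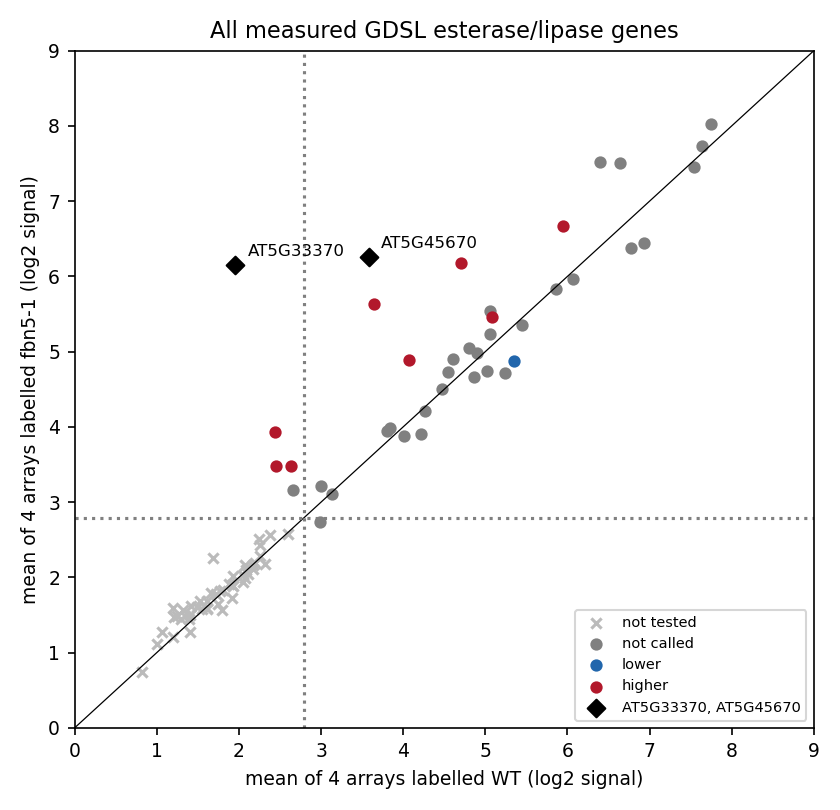
Mean log2 signal of the 4 arrays labelled fbn5-1 (vertical) against that of the 4 labelled WT (horizontal) for the 87 measured GDSL genes, with the filter value of 2.79 dotted and equality as a line. The 47 genes not tested (crosses) lie below the filter value in both genotypes by selection, and AT5G33370 lies at a mean of 6.16 in fbn5-1 and 1.96 in WT.

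Among the desaturases other than AT1G06360, 1 gene rose, AT1G06100, also of the membrane-bound ADS type. It was at 5.31, 2.94, 4.18 and 3.98 in fbn5-1 and 1.53, 2.22, 2.01 and 2.34 in WT, and rose by 2.08 (SE 0.43, limma adjusted p = 0.0135). Its 4 fbn5-1 values lay above its WT values, but without arrays 1 and 4 standing together above 2 and 3 as in AT1G06360. Its WT mean of 2.03 was below the filter value, so like AT1G06360 it was tested only through the fbn5-1 arrays, and with 16 added the difference was 0.78. Of the 9 ADS type genes listed, 4 had a probe set that names them alone and 2 were tested, AT1G06360 and AT1G06100. AT1G06090, which lies beside AT1G06100, was at 2.50 ± 0.17 in fbn5-1 and 2.29 ± 0.30 in WT, and AT1G06120 at 1.46 ± 0.18 in fbn5-1 and 1.18 ± 0.08 in WT (SD, n = 4), so both stayed dim and were not tested.

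The soluble acyl-ACP type, which desaturates fatty acids in the plastid stroma, gave no call. Of 7 listed, 5 were measured, 4 were tested and 0 were called by limma, with 1 at an unadjusted p under 0.05. These 4 were the tested desaturases with both group means above 2.79, so the types cannot be compared on equal terms. The largest difference of these 4 was that of AT3G02630, at 6.39, 5.97, 6.13 and 6.41 in fbn5-1 and 6.56, 6.49, 6.63 and 6.47 in WT (difference -0.31, SE 0.11, limma adjusted p = 0.0907). All 4 of its fbn5-1 values lay below its WT values. In all, 24 desaturases were listed, 9 were measured and 6 tested. Beside AT1G06360, 1 of 5 was higher and 0 lower, against 8.22% higher and 8.55% lower of all tested probe sets. The 1 higher gene, AT1G06100, was tested only through the fbn5-1 arrays, so this count says little. Of the 4 with both group means above 2.79, 0 were called, against 7.96% higher and 8.66% lower of such probe sets.

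**Figure D5:**
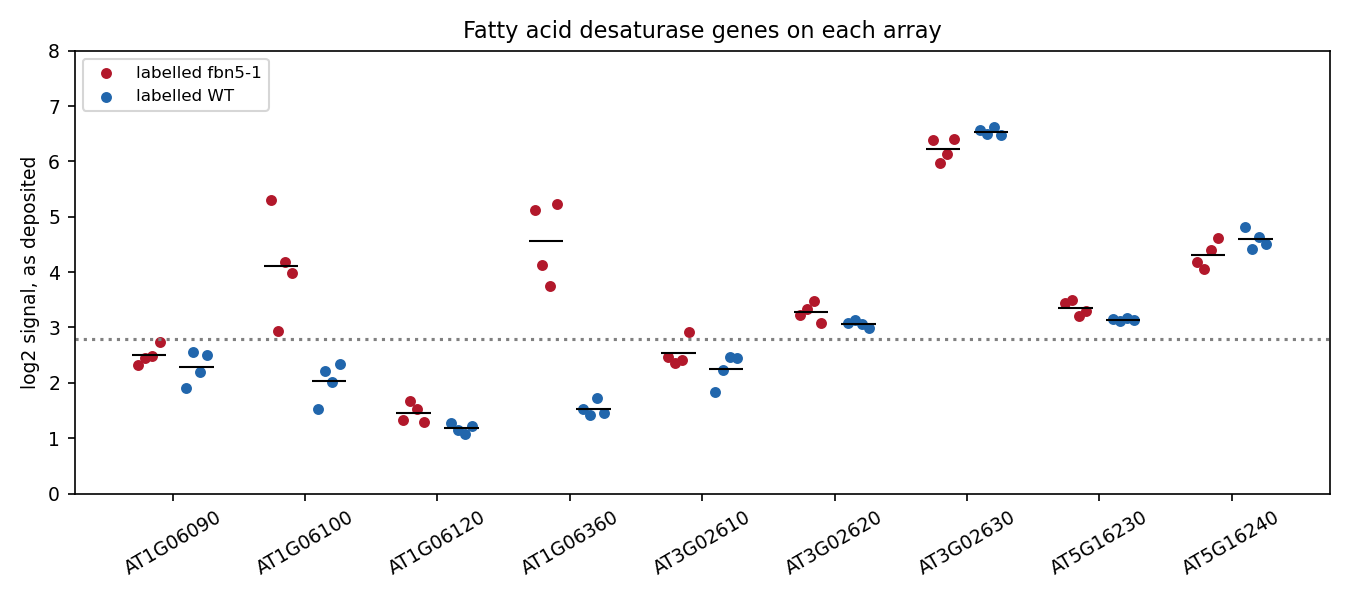
Log2 signal as deposited of the 9 measured desaturase genes on each array, with the 4 arrays labelled fbn5-1 (red) left of the 4 labelled WT (blue), black lines at the group means and the filter value of 2.79 dotted. AT1G06360 and AT1G06100 have means above the dotted line in fbn5-1 and below it in WT; the other 7 have both means on the same side of it.

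Most of the cuticle pathway could not be set beside AT5G33370. Of 18 genes for cutin synthesis and export 0 had a probe set that names them alone, and of 18 for cuticular wax 1 had. Probe sets that name several genes or none were not searched for the others. This was WSD1 (AT5G37300), a wax ester synthase, at 2.96, 3.10, 3.21 and 3.17 in fbn5-1 and 2.22, 1.89, 2.54 and 2.39 in WT. Its fbn5-1 values all lay above its WT values, but its mean over the 8 arrays was below the filter value and it was not tested. Of 13 regulators of cuticle and epidermis 4 were measured, and the 1 tested, AT5G61590 (DEWAX, a repressor of wax genes), had a difference of -0.04 (SE 0.13, limma adjusted p = 0.867). SHN2, SHN3 and AT2G33510 were dim in both genotypes, with group means of 2.09, 1.38 and 1.45 in fbn5-1 and 2.02, 1.30 and 1.58 in WT.

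Markers of dividing cells were higher in the arrays labelled fbn5-1 together with the 3 genes. Of 8 listed, 3 were measured and all 3 were called higher, against 8.22% of all tested probe sets, TOPII by 1.71 (limma adjusted p = 0.00145), AUR2 by 1.20 (limma adjusted p = 0.0116) and AUR1 by 0.97 (limma adjusted p = 0.0233). AUR1 lost its call without WT array 1 or without fbn5-1 array 1, 3 or 4. The summed linear signal of the 3 markers was 52.2 to 98.4 in fbn5-1 and 23.8 to 32.7 in WT. Of 7 epidermis markers 0 had a probe set that names them alone. Of 5 root markers 2 were measured, with a summed linear signal of 618.3 to 849.6 in fbn5-1 and 119.9 to 838.0 in WT. Nearly all of this sum was PYK10, at a log2 signal of 9.23, 9.70, 9.34 and 6.84 on WT arrays 1 to 4. The other root marker, EXPA7, had a mean log2 signal of 2.67 in fbn5-1 and 2.54 in WT and was not tested. Of 7 flower and pollen markers 1 was measured, at a linear signal of 4.00 to 5.66 in fbn5-1 and 4.17 to 5.90 in WT. The part of these cell types in the levels of AT5G33370, AT5G45670 and AT1G06360 was not tested. In whole leaves, a change in the number of cells of a type and a change in RNA per cell cannot be told apart.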

How the data were processed

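Leaf RNA of 4 samples labelled fbn5-1 and 4 labelled WT was measured on Affymetrix arrays, from 200 ng of total RNA per the labels' protocols. The deposited values are log2 signals, 1 per probe set and array; MAS5 is named in the submitters' processing notes, and scaling and log base are not given in the sources used here (log2 was taken from the range of values). The series matrix of 28583 probe sets was used, named by GEO's platform annotation; a table of 38408 was an alternative, and shared probe sets were identical. Of the matrix, 16746 probe sets name 1 gene, 758 several and 11079 none, and 16601 of the 16746 matched a gene of RefSeq assembly TAIR10.1. No build is named for the array, so that table gave names and gene order only. Where several probe sets named a gene, the one with the highest mean was used.

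Probe sets with a mean above the 40th percentile over the 8 arrays (log2 2.79) were tested, 17147 in all, with limma 3.58.1 in R 4.3.3 (lmFit, eBayes with an intensity trend), two-sided, fbn5-1 minus WT, with Benjamini-Hochberg adjustment over all of them; the fit was checked on simulated data. The 3 genes, the gene lists and the rule for named genes were chosen with earlier results of these data known. The rule took the 3 genes, FBN5, up to 4 called genes per list, the 5 closest patterns and the neighbouring genes. The planned ranking of relatives by protein identity was not run, since no protein sequences were used here. Family membership and gene functions are background knowledge, not read from the files, and membership of AT1G58520 in the GDSL family is uncertain. Replicate numbers are shared by the genotypes but did not pair the arrays (correlations of deviations 0.157, -0.187, -0.0367 and 0.00185 for numbers 1 to 4). Alternatives covered 16 added to the linear signal, quantile normalization, centred medians, other filters, eBayes settings, the larger table, array weights, a replicate block and fits without each array in turn. The number of arrays limits the precision.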

Additional observations from a re-analysis of the deposited data

Results flagged for a closer look

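On 4 occasions among 52 groups of 4 arrays examined, 1 array lay far from the other 3 of its label; chance flags about 1 group in 20. FBN5 (AT5G09820) was at 5.15 on WT array 4, against 3.35 to 3.54 on the other WT arrays. TOPII (AT3G23890) was at 2.85 on WT array 4, against 3.29 to 3.35 on the other WT arrays. AUR1 (AT4G32830) was at 3.94 on fbn5-1 array 2, against 4.76 to 4.84 on the other fbn5-1 arrays. The GDSL gene AT3G48460 was at 5.35 on fbn5-1 array 1, against 5.50 to 5.51 on the others. AT5G33370, AT5G45670 and AT1G06360 had no such array in either genotype.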

How the results depend on the processing

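AT5G33370, AT5G45670 and AT1G06360 kept their direction in every alternative that gave them a value; AT5G33370 and AT1G06360 fell under the 60th percentile filter and had none there. With 16 added to the linear signal their differences were 2.14, 1.73 and 1.10, a smaller size that follows from the damping of dim values. Of the other GDSL genes, 9 were called on the deposited scale and 6 to 10 when an array was left out. With the replicate number as a block, which did not pair the arrays, 5 were called, all higher, and 1731 probe sets in all. Array weights gave 4450 probe sets in all, and 2 desaturases other than AT1G06360 (1 higher, 1 lower), where the 60th percentile filter, which leaves fewer genes tested, gave 0. Leaving out an array gave 1736 to 3854 called probe sets in all, and 1 other desaturase throughout; the cause of these changes was not tested. AT4G28780, AT4G18970, AT1G54010, AT5G45960, AT5G18430 and AT1G06100 kept their calls in all alternatives that tested them, with limma adjusted p of up to 0.0429 (AT1G06100, replicate block). AT4G18970, AT5G45960, AT5G18430 and AT1G06100 passed the main filter only through the fbn5-1 arrays, and the 60th percentile filter left them out. Most alternatives used that main filter, so the kept calls of these genes add little. AUR1 lost its call in 5 of 17, with an adjusted p of up to 0.0647. No called difference changed sign. The difference of AT5G61590, which was not called, was positive without WT array 2, WT array 3 or fbn5-1 array 3, at 0.03, 0.02 and 0.0075. The median of the other desaturases was -0.30 over the 2 left by the 60th percentile filter, against 0.21 over 5. Near the filter value, signal over background limits what can be said of sizes.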
